A study of Homo sapiens with 8 samples.

Results

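The regions described here are the peaks of ORCA and of methylated DNA that lay beside the centromeres of U2OS cells, a human osteosarcoma cell line. For each of 19 chromosomes (1 to 16, 18, 20 and 21), the longest stretch without a peak in any of the 4 deposited lists was taken as the stretch that holds the centromere. On chromosomes 13, 14 and 15 this was the stretch before the first peak. Peaks whose midpoint lay within 1 Mb of the stretch were the members. They numbered 1654 of the 98024 peaks of the series, or 1.69%. Of these, 440 were among the 10740 early G1 ORCA peaks (4.10%), 439 among the 10382 mid G1 ORCA peaks (4.23%), 98 among the 1347 late G1 ORCA peaks (7.28%) and 677 among the 75555 MeDIP peaks (0.896%).

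The study profiled ORCA by ChIP-seq in U2OS cells synchronized in early, mid or late G1, and methylated DNA by MeDIP-seq in U2OS cells for which no cell cycle stage was given. Each of the 4 immunoprecipitated samples had an input, and each stood alone in its group, so that no replicate error was available and no test between stages could be made. The cells carried no other stated treatment or genetic change, and how they were synchronized is not stated in the sources used here. The sources do not give the read depth behind the lists either, so the number of peaks in a list reflects the sample, its depth and the calling together. Intervals below are 95% intervals, cover counting error only, and treat neighbouring peaks as independent, which they are not.

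ORCA (LRWD1) contains WD repeats and binds ORC, the origin recognition complex, which marks replication origins and on which the replicative helicase is loaded during G1. ORCA is known to stabilize ORC on chromatin and to localize to heterochromatin, which is compact, repeat-rich and often methylated at CpG sites. The sequence beside human centromeres is a main site of such heterochromatin, and there satellite repeats give way to segmental duplications and then to the unique sequence of the arms. MeDIP enriches DNA fragments that carry methylated cytosine with an antibody against it.

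The stretches had the sizes and places that the rule was meant to find, with some exceptions. On the 16 chromosomes with peaks on both sides, they were between 3.09 and 21.3 Mb long with a median of 3.54 Mb, and 12 of 16 were under 4 Mb. The longer ones lay on chromosomes 1 (21.3 Mb), 9 (18.2 Mb), 16 (11.6 Mb) and 11 (5.38 Mb). The margin was small on chromosome 6, where the stretch was 3.62 Mb and the next longest 3.46 Mb, and on chromosome 4, where they were 3.09 and 2.88 Mb. The centre of the stretch lay near the middle on the metacentric chromosomes 1, 3, 16 and 20, at 52.9%, 46.4%, 45.2% and 44.2% of the way to the last peak. It lay at 21.8% on chromosome 18. On the acrocentric chromosomes 13, 14 and 15 it lay at 8.33%, 8.90% and 9.80%. There the rule itself put the stretch at the chromosome start, so these values do not check its place. An annotation of centromeres was not used here. In what follows, the p side is the side of lower coordinates and the q side that of higher coordinates, in the hg19 build.

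By construction a peak ended the stretch on each of the 35 sides. That peak was a MeDIP peak on 12 sides, a mid ORCA peak on 12, an early one on 8 and a late one on 3, so that 23 of the 977 ORCA members were there by the rule itself. The 35 sides covered 35 Mb. They were set beside the arms of the same chromosomes, which ran from the first to the last peak without the stretches and sides and covered 2487.1 Mb.

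ORCA peaks were several times denser beside the stretches than in the arms at each stage of G1, and MeDIP peaks were somewhat sparser. Early ORCA peaks had a density of 12.6 per Mb beside the stretches and 3.32 per Mb in the arms, a ratio of 3.79 (3.43 to 4.17). Mid ORCA peaks had 12.5 per Mb beside the stretches and 3.23 per Mb in the arms, a ratio of 3.88 (3.52 to 4.27). Late ORCA peaks had 2.8 per Mb beside the stretches and 0.405 per Mb in the arms, a ratio of 6.91 (5.56 to 8.51). These sides made up 1.39% of the length compared and held 8.86% of the late peaks on these chromosomes. When the early and mid lists were reduced to their 1106 best-scoring peaks, as many as the late list has on these chromosomes, their ratios were 5.02 (3.90 to 6.37) and 4.29 (3.27 to 5.54). MeDIP peaks had 19.3 per Mb beside the stretches and 23.6 per Mb in the arms, a ratio of 0.821 (0.760 to 0.886), and of 0.916 in the higher-scoring part of the list by its median, where the interval ran from 0.825 to just above 1. The MeDIP ratio depended on the chromosome ends, where MeDIP peaks are dense: against arms without 5 Mb at either end it was 1.11 (1.02 to 1.19). ORCA peaks were dense at these ends too. The ends held 2852 of the 8252 early arm peaks, 3056 of the 8036 mid and 533 of the 1008 late ones. The arms without them still covered 2304.36 of the 2487.1 Mb, so high ORCA density was not particular to the sides.

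In bases, early peaks covered 1.45% of the sequence beside the stretches and 0.261% of the arms. Mid peaks covered 1.45% and 0.270%, and late peaks 0.461% and 0.0498%. MeDIP peaks covered 2.08% beside the stretches and 2.49% of the arms, or 1.71% of the arms without their ends. The excess of ORCA beside the stretches was thus larger in bases than in numbers of peaks.

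The excess was spread over many chromosomes, but not over all. Early peaks were denser beside the stretch than in the arms of the same chromosome on 13 of 19 chromosomes, with a median ratio of 2.94. Mid peaks were denser on 16 of 19, with a median ratio of 3.15, and late peaks on 13 of 19, with a median ratio of 3.91. These counts include the peaks that ended the stretches. MeDIP peaks were denser on 6 of 19 and sparser on 13, with a median ratio of 0.693 and a range from 0.112 to 2.36. Chromosome 14 had the highest ORCA ratios at each stage. Its single side held 46 early, 44 mid and 15 late peaks per Mb, against 3.79, 2.97 and 0.310 per Mb in its long arm. On chromosome 8 the ratio was 0.0542 for early and 0.165 for mid peaks, and on chromosome 7 it was 0.675 and 0.865. These chromosomes carry dense runs of ORCA peaks at the start of 7 and at the end of 8, with up to 308 and 231 early peaks in a single 1 Mb window of their arms. On chromosomes 3 and 5 no early or late peak lay beside the stretch, while 4 and 7 mid peaks did. On both chromosomes a mid peak ended the stretch on either side, so part of this contrast came from the rule. Without those peaks, mid density there would not exceed that of the arms. The 16 of 19 for mid peaks thus depends on the rule at chromosomes 3 and 5.

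The sides differed widely in their number of peaks. Early counts ran between 0 and 52 per side with a median of 7, and mid counts between 0 and 44 with a median of 8. Late counts ran between 0 and 15 with a median of 1, and MeDIP counts between 0 and 62 with a median of 15. The median 1 Mb window of the arms held 1 early, 1 mid, 0 late and 9 MeDIP peaks. Typical sides were thus above typical arm windows in all 4 lists, including MeDIP, although its density over all the arms was the higher one.

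The 90th percentile of the arm windows was 7 early, 6 mid, 1 late and 61 MeDIP peaks. More than that many early peaks lay on 15 of 35 sides (42.9%), against 8.38% of the 2469 arm windows. For mid peaks it was 18 of 35 sides (51.4%) and 9.76% of arm windows. For late peaks it was 13 of 35 sides (37.1%) and 5.1% of arm windows. For MeDIP peaks it was 1 of 35 sides (2.86%), side 20p, and 9.76% of arm windows. High counts were therefore several times more frequent beside the stretches for ORCA, while for MeDIP 1 side is too few to give a direction.

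The sides with most early peaks were 10q (52), 14q (46) and 21p (38). The sides with most mid peaks were 14q (44), 10q (43) and 18p (39). Most late peaks were on 14q (15), followed by 1q, 4p and 18p with 9 each. Sides 10q and 14q thus stood high in both the early and the mid list, and 14q in all 3. The late list differed more: side 12p, with 28 early and 23 mid peaks, had 1 late peak. MeDIP peaks were most numerous on other sides, 20p (62), 15q (47) and 2q (46). Taking the ORCA stages together, 8 sides held 50 or more peaks each: 2p, 10q, 12p, 14q, 15q, 18p, 20q and 21p. These held 606 of the 977 ORCA peaks (62.0%) and 232 of the 677 MeDIP peaks (34.3%).

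At the other extreme, 9 sides held fewer than 5 ORCA peaks: 3p, 3q, 5p, 5q, 6q, 8p, 8q, 11q and 13q. Side 8q had none at any stage and 5 MeDIP peaks. No early peak lay on 3p, 3q, 5p, 5q, 8q, 11q or 13q, and no mid peak on 8q. No late peak lay on 17 sides, which were the sides without early peaks and also 4q, 6p, 6q, 8p, 9q, 11p, 12q, 16p, 18q and 21q. No MeDIP peak lay on 3p or 6q. Few ORCA peaks did not mean few MeDIP peaks. Side 13q had 1 ORCA peak, of the mid list, and 36 MeDIP peaks, and side 8p had 4 ORCA and 29 MeDIP peaks. Side 21p had 79 ORCA peaks and 14 MeDIP peaks.

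**Figure D1:**
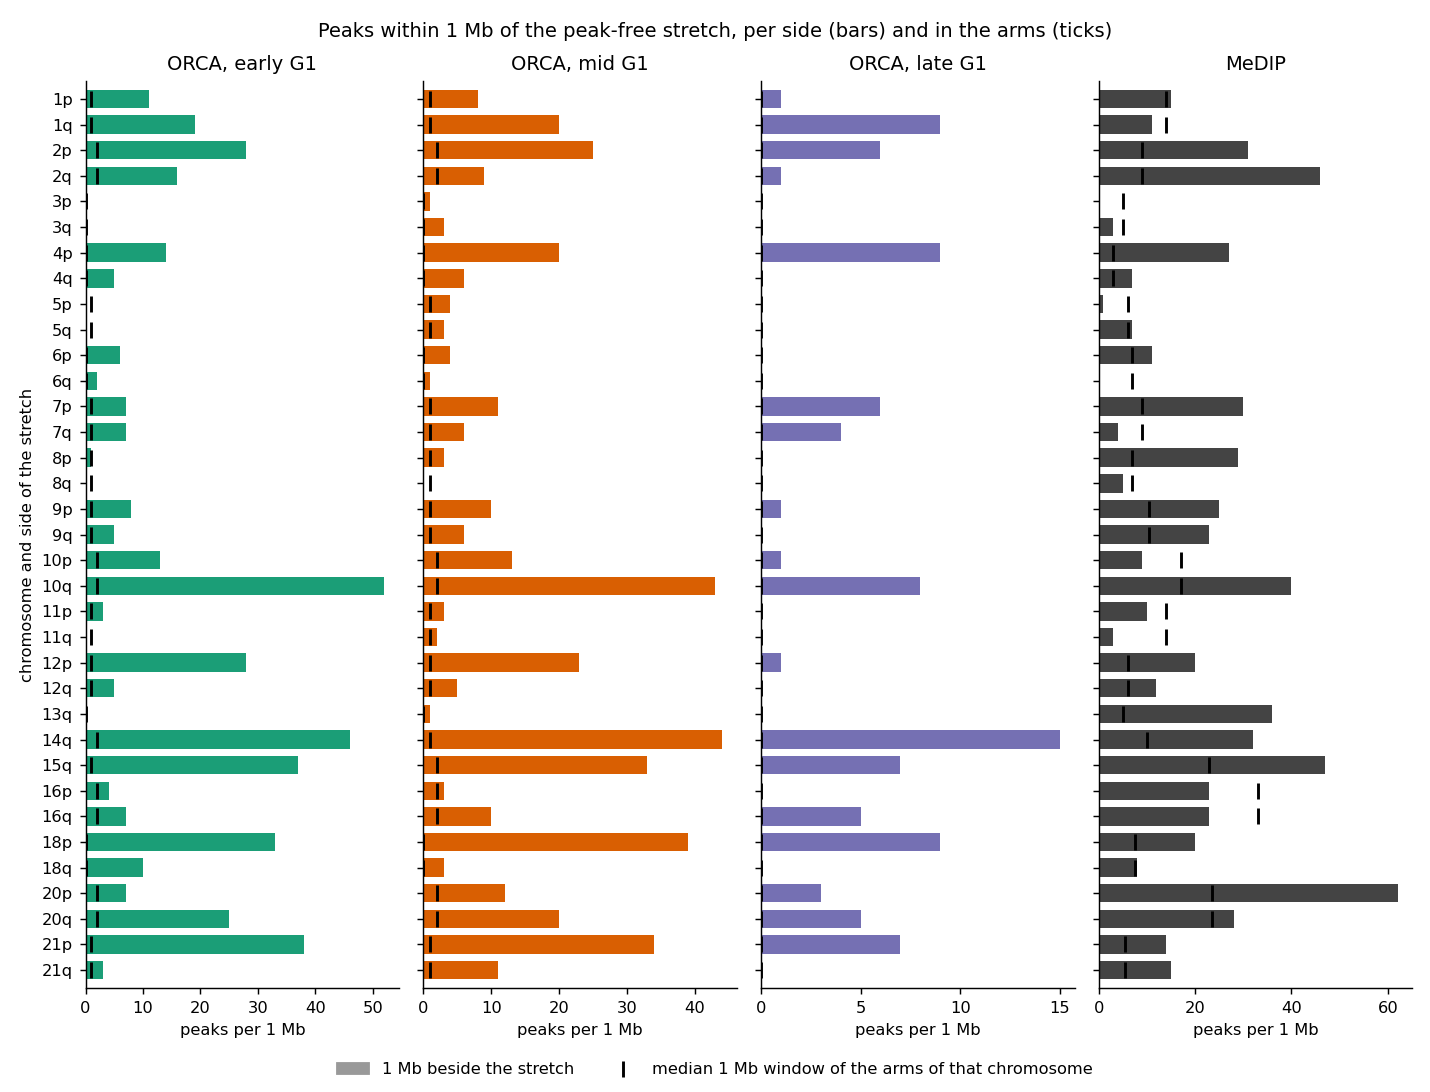
Number of peaks within 1 Mb of the stretch on each of the 35 sides (bars, peaks per 1 Mb), for early, mid and late G1 ORCA and for MeDIP, with the median 1 Mb window of the arms of the same chromosome as a black tick. The longest early and mid bars are on 10q, 14q, 15q, 18p and 21p, the longest late bar, 15 peaks, is on 14q, and the longest MeDIP bar, 62 peaks, is on 20p.

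Across the 35 sides, early and mid counts had a Pearson r of 0.965 and a Spearman rho of 0.905. Early and late counts had 0.790 and 0.857, and mid and late counts 0.862 and 0.876. Early and MeDIP counts had 0.450 and 0.563. These values are descriptions, since the sides are not independent samples and share their libraries. Across the 2469 arm windows, early and mid counts had a Pearson r of 0.979 and a Spearman rho of 0.700, and early and MeDIP counts 0.377 and 0.423. The sides ranked alike in the 3 ORCA lists and less alike between ORCA and MeDIP.

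On the 16 chromosomes with both sides, ORCA counts over all stages were higher on the p side for 11 and on the q side for 5. Early peaks numbered 201 on p sides and 156 on q sides, mid peaks 213 and 148, late peaks 44 and 32, and MeDIP peaks 327 and 235. Within a chromosome the 2 sides could differ greatly. Chromosome 10 had 27 ORCA peaks on its p side and 103 on its q side, chromosome 12 had 52 and 10, and chromosome 21 had 79 and 14.

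ORCA density was higher in the first 500 kb from the stretch than in the next and declined farther out, to near the arm density by about 3 Mb, while MeDIP density showed no such decline. The decline was not even: in 250 kb bins early and mid density was highest in the second bin, at 15 and 15.1 per Mb, after 14.1 per Mb in the first, and only late density was highest in the first bin, at 4.34 per Mb. Within the first 500 kb there were 14.5 early peaks per Mb, against 10.6 in the next 500 kb. Mid peaks had 14.6 and 10.5 per Mb, late peaks 3.31 and 2.29, and MeDIP peaks 18.2 and 20.5. The first 100 kb held 20 late peaks on 7 chromosomes, a density of 5.71 per Mb. Beyond the 1 Mb used to choose the members, early density was 11 per Mb between 1 and 1.25 Mb and 2.59 per Mb between 3 and 3.25 Mb. The 1 Mb limit is thus a cut within a gradient and not its end.

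**Figure D2:**
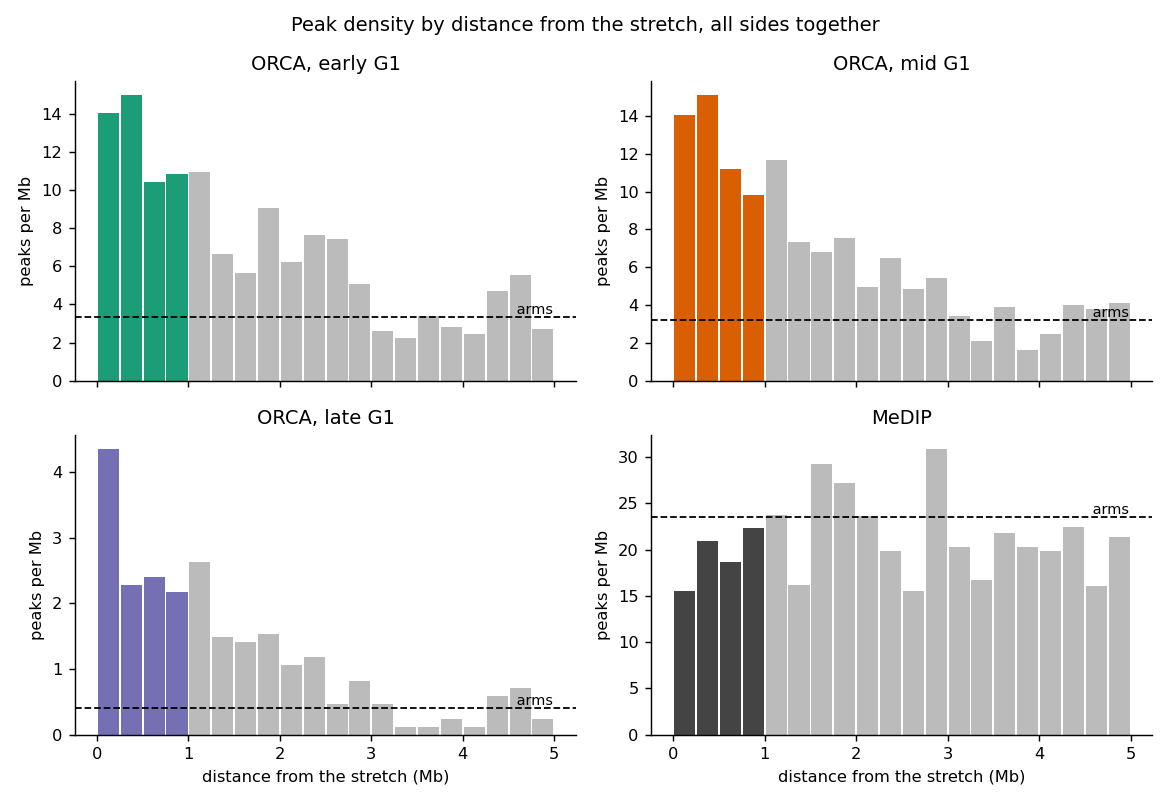
Peaks per Mb in 250 kb bins by distance from the stretch (Mb), all sides together, for the 4 lists. Coloured bars lie within 1 Mb, grey bars beyond it, and the dashed line is the density of the arms. The early and mid bars are highest within the first 500 kb and the late bars in the first 250 kb, all come down to near the arm level by about 3 Mb, and the MeDIP bars show no such decline.

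Within a side the ORCA peaks lay close together. The 3 ORCA lists merged into 684 regions beside the stretches and 13345 in the arms, or 19.5 and 5.37 per Mb. The median gap from a region to its nearest neighbour was 3624 bp beside the stretches and 10559 bp in the arms. A neighbour lay within 10 kb for 67.7% of regions beside the stretches (64.1 to 71.1%) and for 49.4% in the arms (48.5 to 50.2%). The shorter gap goes along with the higher density, and clustering beyond it was not tested. On 21p the first 100 kb held 11 of the 38 early, 11 of the 34 mid and 4 of the 7 late peaks of that side, many of them wide. On 12p, 25 of 28 early peaks, 21 of 23 mid peaks, the single late peak and 19 of 20 MeDIP peaks lay between 200 and 410 kb from the stretch. On 10q, 6 early and 2 mid peaks but no late or MeDIP peak lay between 170 and 210 kb. The farthest peak of any list was 569 kb from the stretch on 12p and 598 kb on 2p, so these sides had no peak in their outer part.

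**Figure D3:**
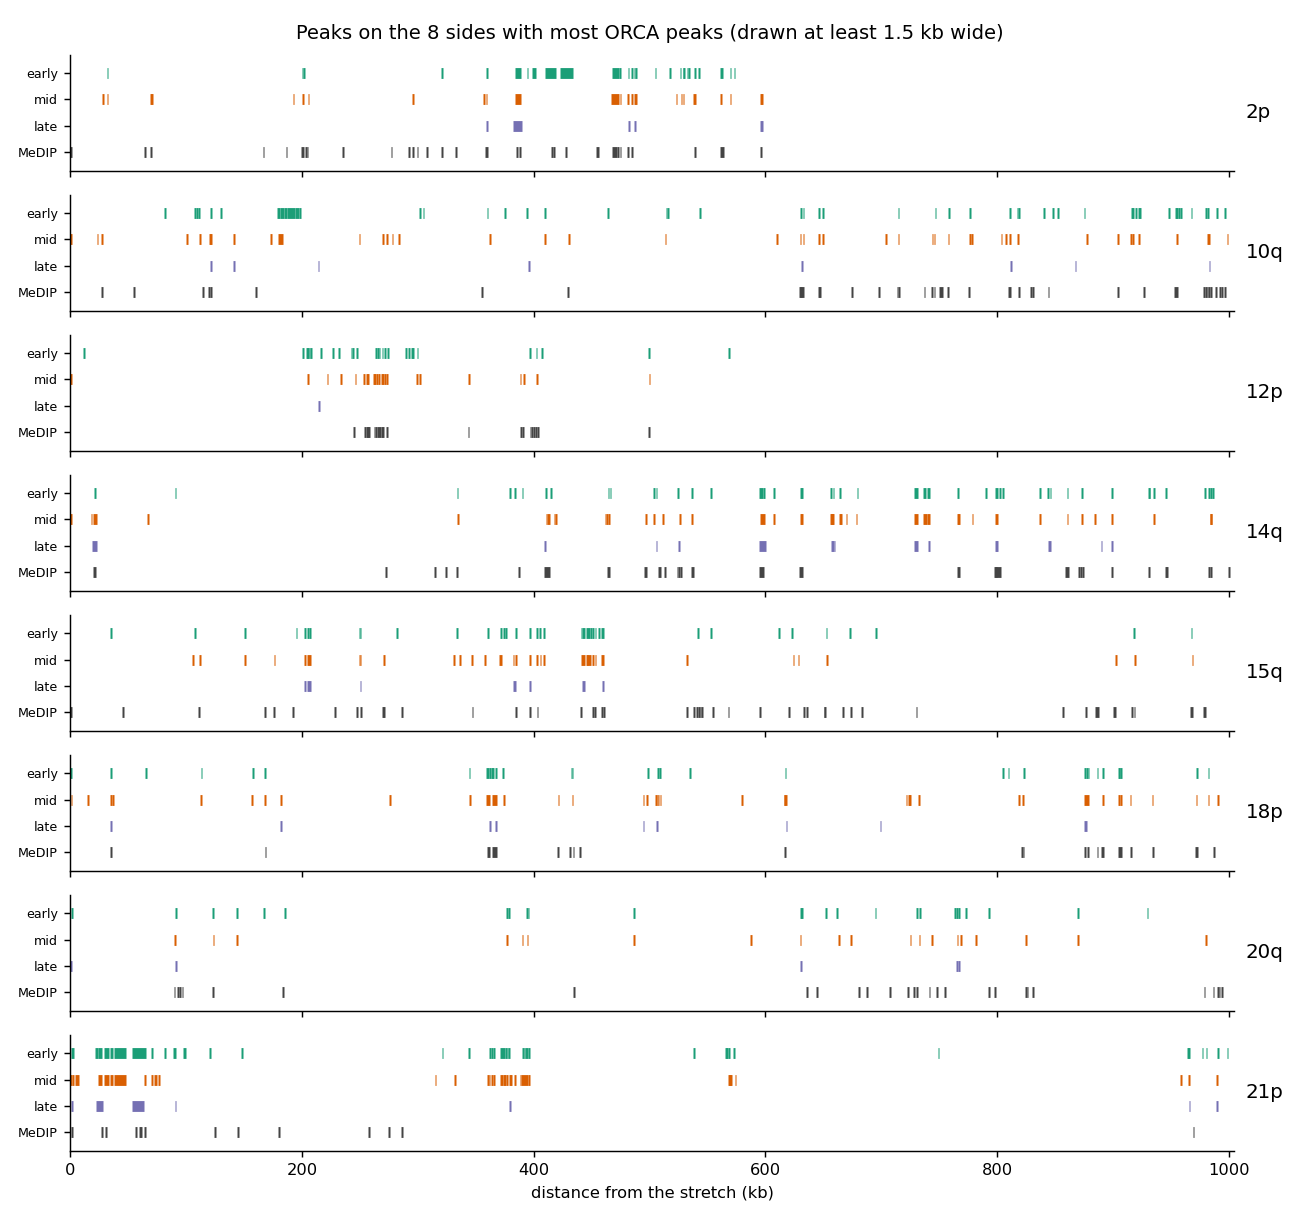
Positions of the peaks on the 8 sides with 50 or more ORCA peaks, by distance from the stretch (kb), with a row each for early, mid and late ORCA and for MeDIP. Peaks are drawn at least 1.5 kb wide. Clusters in both the early and the mid row are seen, such as those in the first 100 kb of 21p and between 200 and 410 kb on 12p, and the late row holds the fewest marks of the ORCA rows, 1 on 12p.

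Peaks beside the stretches were shared between the early and mid stages more often than peaks of the arms. Of the early peaks beside the stretches, 202 of 440 (45.9%) overlapped a mid peak, against 33.1% in the arms, a difference of 12.9 percentage points (8.14 to 17.6). Of the mid peaks, 189 of 439 (43.1%) overlapped an early peak, against 32.7% in the arms, a difference of 10.4 points (5.71 to 15.2). Against the arms without their 5 Mb ends, which had 21% and 22.7%, the differences were larger, 24.9 and 20.3 points. The chromosome ends themselves had a higher share, 55.9% of early peaks and 48.9% of mid peaks.

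For late peaks, sharing could not be told apart from that of the arms. Of the 98 late peaks beside the stretches, 62 (63.3%) overlapped an early peak, against 67.8% in the arms, a difference of -4.49 points (-14.8 to 4.86). With mid peaks it was 65 of 98 (66.3%) against 71.9%, a difference of -5.60 points (-15.8 to 3.45). Against the arms without their ends both differences were above 0, at 6.84 (-3.96 to 16.8) and 5.06 points (-5.64 to 14.7), so these counts do not give a direction. Late peaks had higher shares than early and mid peaks both beside the stretches and in the arms, and theirs was the shortest list.

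Among the merged regions, 52 of 684 beside the stretches were found at all 3 stages (7.60%), against 3.96% in the arms, a difference of 3.64 points (1.85 to 5.89). With ORCA lists of equal length the difference was 2.24 points, and its interval spanned 0 (-3.05 to 9.14). Regions found at early and mid only numbered 125 (18.3%, against 13.1% in the arms). Regions of the early stage alone made up 33.3% beside the stretches and 40.6% in the arms, and those of the mid stage alone 34.2% and 39.4%. Regions of the late stage alone made up 3.22% (22 regions) and 1.44%. Any late peak was present in 14.2% of regions beside the stretches (11.8 to 17%) and in 6.89% of arm regions (6.48 to 7.34%). Classes that include more than 1 stage or a late peak were thus a larger share beside the stretches, and the early-only and mid-only classes a smaller one.

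The 52 regions found at all 3 stages lay on 14 sides of 11 chromosomes. Side 14q held 8, 15q held 7, 18p and 21p held 6 each, 16q held 5, and 2p and 10q held 4 each. Sides 4p and 20q held 3 each, 20p held 2, and 1p, 1q, 2q and 7q held 1 each. Of the 52, 34 lay within 500 kb of the stretch and 7 within 100 kb. Their median width was 2222.5 bp, against 1735 bp for such regions in the arms. A MeDIP peak overlapped 31 of 52 (59.6%, 46.1 to 71.8%), close to the 61.2% of such regions in the arms with their ends included.

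Of the 10 that stood highest by mean score rank over the 3 lists, 5 were on 16q, 2 on 15q and 1 each on 1p, 14q and 20p. The rank is the percentile of a peak's score within its list, with 100 the highest. On 16q, chr16:46726098-46726666 had scores of 3100 in the early, 1129.65 in the mid and 1241.4 in the late list, and the mean rank was 99.2. On 20p, chr20:26188478-26190737 lay 67.9 kb from the stretch and had scores of 2238.12, 2047.62 and 866.2, with a MeDIP peak of score 3100 on it. On 15q, chr15:20307429-20311417 had scores of 345.45, 658.6 and 189.61 and no MeDIP peak. On 14q, chr14:19107604-19111971, 21 kb from the stretch, had scores of 161.73, 377.36 and 151.41 and a MeDIP peak. Also on 15q, chr15:20561620-20564479 had a MeDIP peak, and on 1p, chr1:120543715-120544242 had none. In all, 3 of the 10 overlapped a MeDIP peak. Scores were compared only within a list.

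The regions on 16q were unlike the others. A group of 7 of the 11 ORCA regions of that side lay in chr16:46723423-46731713, a run of 8.29 kb, singled out after its values were seen. The regions were 291 to 569 bp wide, none overlapped a MeDIP peak, and 5 of the 7 were found at all 3 stages. All 7 early peaks and all 5 late peaks of side 16q lay in it, with scores of 268.13 to 3100 and of 171.56 to 1241.4, and so did 6 of its 10 mid peaks. Of the late peaks beside the stretches, 8 of 98 were among the highest 10% of their list, and without the run 4 of 93 were. The run weighed less in the longer lists, where 59 early peaks in place of 66 and 47 mid peaks in place of 52 were among the highest 10% without it. The genes there were not assigned, as an hg19 annotation was not used here.

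ORCA peaks beside the stretches were wider than those of the arms. The median width was 781 bp beside the stretches and 580 bp in the arms for early peaks, a ratio of 1.35 (1.26 to 1.43). For mid peaks it was 829 and 619 bp, a ratio of 1.34 (1.26 to 1.45), and for late peaks 1108 and 938.5 bp, a ratio of 1.18 (1.11 to 1.47). MeDIP peaks differed little, at 880 and 830 bp, a ratio of 1.06 (1.02 to 1.11). At the 5 Mb chromosome ends the median widths were 817 bp for early, 783.5 bp for mid and 1011 bp for late peaks. For early and mid peaks the median at the ends thus lay within the interval of the median beside the stretches. For late peaks it lay below that interval.

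Very wide peaks were a larger share beside the stretches in each ORCA list. At least 3 kb were spanned by 19 early peaks beside the stretches (4.32%), against 1.26% in the arms. For mid peaks it was 30 (6.83%) against 1.67%, and for late peaks 11 (11.2%) against 4.27%. For MeDIP peaks it was 18 (2.66%) against 2.82%, a share near that of the arms. The 3 widest ORCA peaks were all early ones: chr21:11105898-11117642 on 21p, 11745 bp wide, chr2:91798246-91809667 on 2p, 11422 bp wide, and chr21:11122618-11133349 on 21p, 10732 bp wide. Both peaks of 21p stood high in the early list, at ranks of 98.7 and 97.7. The peak of 2p had a score of 51.7, close to the lowest score of 50 in the lists, and overlapped no mid or late peak. The 3 widest MeDIP peaks lay on 20p, 14q and 10p and were 4755, 4657 and 4434 bp wide.

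The score ranks of early, mid and MeDIP peaks were higher beside the stretches than in the arms, and for early and mid peaks lower than at the chromosome ends. Their median rank was 55.3 beside the stretches and 49.9 in the arms for early peaks, a difference of 5.36 (0.933 to 10.9). For mid peaks it was 57.6 and 50.3, a difference of 7.30 (2.76 to 10.8), and for MeDIP peaks 54.5 and 48.8, a difference of 5.72 (1.92 to 10.1). For late peaks it was 45.4 and 49.5, a difference of -4.2 (-9.45 to 9.53). At the 5 Mb chromosome ends the median rank was 64.9 for early and 61.8 for mid peaks, and against the arms without these ends the differences were 12.3 and 13.6. Early and mid peaks of the first 500 kb had the higher ranks, with medians of 60.5 and 61.4, against 50.1 and 49.9 in the next 500 kb.

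The highest 10% of each list by score were represented more often beside the stretches for early peaks, with 66 of 440 (15%) against 10.3% in the arms. For mid peaks it was 52 (11.8%) against 10.6%, for late peaks 8 (8.16%) against 10.4%, and for MeDIP peaks 65 (9.60%) against 9.79%, each near its share in the arms. The mid share was not near that of the arms without their ends, 6.49%, nor that of the ends, 17.2%. For early peaks the share at the ends was 17.6%, above that beside the stretches. The higher density beside the stretches thus covered lower-scoring peaks as well. The highest-scoring peaks beside the stretches were those of 16q and 20p described above in the early and late lists. In the mid list they were the peak of 20p, chr2:95702260-95705558 on 2q with a score of 1213.21, and that of 16q. The highest MeDIP scores were 3230.05 at chr6:58146718-58149834 on 6p, where a mid ORCA peak also lay, 3123.6 at chr16:46877691-46878612 on 16q, with no ORCA peak, and 3112.59 at chr12:34492639-34495506 on 12p, with early and mid peaks.

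Of the MeDIP peaks beside the stretches, a larger share carried ORCA than of those in the arms. Any ORCA peak overlapped 196 of 677 (29.0%, 25.7 to 32.5%), against 7.68% in the arms, a difference of 21.3 percentage points (18 to 24.8). By stage, an early peak overlapped 19.5% beside the stretches and 4.42% in the arms, a mid peak 24.1% and 5.83%, and a late peak 5.91% and 0.874%. Against the arms without their ends the difference for any ORCA peak was 23.3 points. ORCA covered several times more of the bases beside the stretches, as given above, and its part in these shares was not tested.

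In the other direction the shares were lower than in the arms, and this depended on the chromosome ends. A MeDIP peak overlapped 129 of 440 early peaks beside the stretches (29.3%), against 34.9% in the arms, a difference of -5.62 points (-9.81 to -1.08). For mid peaks it was 164 of 439 (37.4%) against 47.7%, a difference of -10.4 points (-14.9 to -5.61). For late peaks it was 35 of 98 (35.7%) against 48.9%, a difference of -13.2 points (-22.5 to -2.87). At the 5 Mb chromosome ends the shares were 61.5%, 66.0% and 62.9%. Against the arms without these ends, which had 20.9%, 36.5% and 33.3%, the differences turned to 8.41 (4.2 to 13), 0.892 (-3.71 to 5.69) and 2.45 points (-7.35 to 13.1). The lower shares also rested on other choices. Without the widest 5% of peaks the differences were -2.07 (-5.97 to 2.39), -0.542 (-5.03 to 4.32) and -3.38 points (-11.8 to 7.03). With an overlap of 50% of the shorter peak, the early difference was -3.08 (-7.09 to 1.33) and the late one -10 points (-19 to 0.235). ORCA peaks beside the stretches therefore overlapped MeDIP peaks less often than those of the chromosome ends. Set beside the remaining arms, early peaks did so more often, and the mid and late intervals spanned 0.

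**Figure D4:**
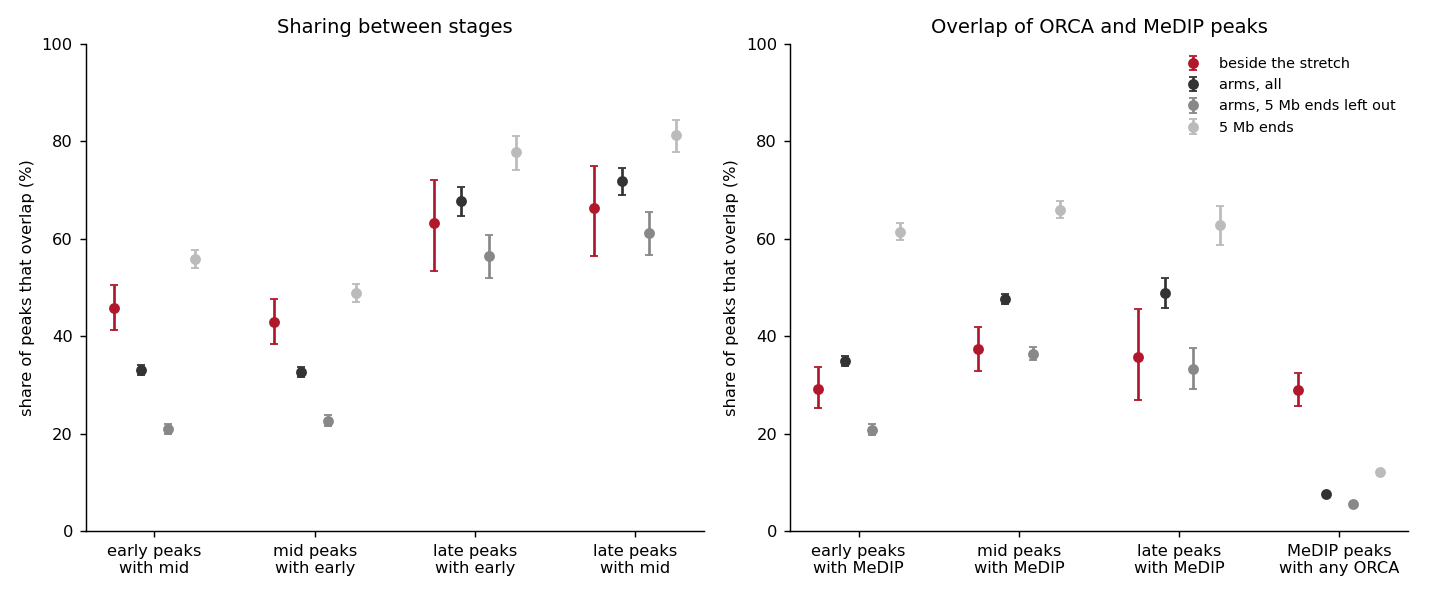
Share of peaks (%) that overlap a peak of another ORCA stage (left) and share of ORCA peaks with a MeDIP peak or of MeDIP peaks with an ORCA peak (right), beside the stretches, in the arms, in the arms without 5 Mb at either end, and in these ends, with 95% Wilson intervals. The ends lie highest among the arm groups in each comparison, and the share of MeDIP peaks with ORCA is highest beside the stretches, at 29.0%.

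Beside the stretches, the lower MeDIP share was most marked among the widest early and mid ORCA peaks. In the arms, the share with a MeDIP peak rose with the width of the ORCA peak to 90 of 104 early peaks (86.5%) and 118 of 134 mid peaks (88.1%) of 3 kb or more. Beside the stretches, it was 8 of 19 early peaks (42.1%) and 15 of 30 mid peaks (50%) of that width. The differences were -44.4 points (-64.1 to -21.4) for early and -38.1 points (-55.5 to -20.0) for mid peaks. They held against the arms without their ends, at -48.4 (-68.2 to -23.4) and -32.4 points (-51.0 to -11.3). For late peaks of that width it was 7 of 11 (63.6%) against 72.1%, a difference of -8.46 points (-38.8 to 17.4). Against the arms without their ends it was 0.478 points (-32.9 to 31.1), so the few late peaks of this width gave no direction. The wide peaks were spread over 8 sides for early, 12 for mid and 7 for late, and the sides with the most were 21p with 6 of the 19 early ones and 1q with 5 of the 30 mid ones. In a comparison chosen after these values were seen, early peaks without 21p had 5 of 13 (38.5%), a difference of -48.1 points (-69.5 to -20.9), and mid peaks without 1q had 14 of 25 (56%), a difference of -32.1 points (-51.5 to -13.5).

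**Figure D5:**
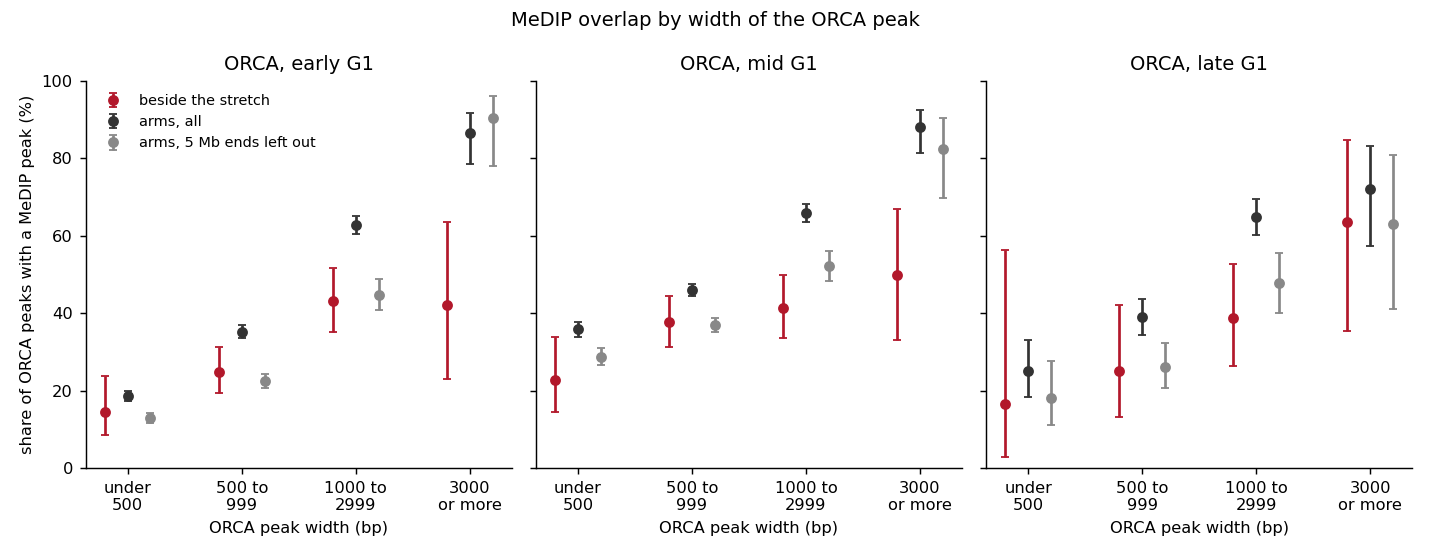
Share of ORCA peaks with a MeDIP peak (%) by width of the ORCA peak (bp), for the 3 stages, beside the stretches, in the arms and in the arms without 5 Mb at either end, with 95% Wilson intervals. For early and mid peaks of 3000 bp or more, the share beside the stretches is 42.1% and 50%, and that of the arms 86.5% and 88.1%.

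MeDIP overlap also differed by the stages at which a region was found. Of the 684 regions beside the stretches, 192 (28.1%) overlapped a MeDIP peak, against 36.2% in the arms. Regions of the early stage alone had 13.6% (31 of 228), those of the mid stage alone 28.6% (67 of 234) and those of early and mid 46.4% (58 of 125). In the arms these classes had 21.7%, 41.6% and 58.5%, in the same order. Their median widths were 616.5, 662 and 1282 bp beside the stretches and 502, 540 and 1230 bp in the arms. The part of width in these shares was not tested. These arms include the chromosome ends, and regions were not compared with the arms without them. For single peaks, the lower share beside the stretches did not hold in that comparison, as given above. None of the 22 regions of the late stage alone overlapped a MeDIP peak, which allows a share of up to 13.6% (3 counts of 22), against 19.8% (38 of 192) in the arms.

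Among sides with at least 10 early peaks, the share with a MeDIP peak ran between 0 and 57.6% over 14 sides, with a median of 30.6%. It was 0 of 13 on 10p and 0 of 10 on 18q, 4 of 38 on 21p, and 19 of 33 on 18p. Over the 16 sides with at least 10 mid peaks it ran between 10.0% and 60.0%, with a median of 35.7%. The sides rich in ORCA thus included some with frequent and some with rare MeDIP overlap.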

How the data were processed

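ChIP-seq of ORCA at 3 stages of G1 and MeDIP-seq were done on U2OS cells, with 1 sample per group. Per the submitters' processing notes, the tools were Trimmomatic and Bowtie 0.12.7 and the build GRCh37 (hg19). The authors deposited 4 peak lists with start, end and a score per peak, and the score was taken as the peak caller's own value for that peak. It was at least 50. Caller version, settings, control, depth and the treatment of reads that align to several places are not stated in the sources used here, and the late list's label names the caller with another number. The inputs were not analysed here.

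Chromosome names were unified, starts are printed from 1, and peaks were placed by midpoint. A peak overlapped another if 1 bp was shared. ORCA regions were merged overlapping ORCA peaks. Arm windows were 1 Mb tiles outward from the sides. Density ratios have exact binomial intervals, shares Wilson intervals, differences of shares Newcombe intervals, and medians beside the stretches have intervals from order statistics with the arm median held fixed, all at 95%. The code was checked on simulated lists. Python 3.11.15, pandas 2.3.3, numpy 2.4.6, scipy 1.17.1 and matplotlib 3.10.9 were used. The rule for named regions took the 10 regions of all 3 stages with the best mean rank, per list the 3 highest-scoring peaks, the 3 sides with most peaks and every empty side, and the 3 widest ORCA and MeDIP peaks. The members and lists were chosen with earlier results of these data known. No genome or gene annotation of hg19 was used here.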

Additional observations from a re-analysis of the deposited data

How the results depend on the processing

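The results were recomputed under 13 settings, each for the results it bears on. Of 133 recomputed values, 83 stayed within the main interval, 5 of them identical to the main value, 40 moved beyond it and 10 turned round. A turn was counted only where the main interval left out the value of no difference. The late rank difference, whose main interval spanned 0, therefore counted among the 83 when it changed sign. It went from -4.2 to 3.82 without the 5 Mb ends and to 3.11 without the telomere-side ends. The 8 alternatives for the share of regions found at all 3 stages gave differences of 2.24 to 4.78 points, within its interval, but with lists of equal length (2.24) the difference's own interval spanned 0.

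What the arms hold mattered most. Without 5 Mb at the chromosome ends, the density ratios were 5.36 for early, 5.80 for mid, 13.6 for late and 1.11 for MeDIP peaks, the rank differences were 12.3 (early) and 13.6 (mid), and the differences in MeDIP share turned to 8.41, 0.892 and 2.45 points (early, mid, late). The alternatives in the rest of this paragraph were chosen after seeing the data. With telomere-side ends only left out, the ratios were 5.31, 5.74, 13 and 1.10, the rank differences 12 and 13.2, and the shares 8.33, 0.929 and 2.58 points. Without the dense ends of chromosomes 7 and 8, the ORCA ratios were 5.06, 5.17 and 10.2, the width ratios 1.56 (early) and 1.53 (mid), the rank differences 11.6 and 12.7, and the shares 4.87, -3.56 and 0.759 points. Without other empty stretches of over 1 Mb the ratios were 3.37 (early), 3.46 (mid) and 0.731 (MeDIP). With ORCA lists of equal length they were 5.02 (early) and 4.29 (mid).

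With 500 kb sides the density ratio was 4.31 for early and 4.44 for mid peaks, and the mid rank difference was 11.1. With 2 Mb sides the ratios were 3.22 (early), 3.34 (mid) and 0.921 (MeDIP). With the higher-scoring peaks of each list they were 4.25, 4.40 and 0.916, and the late share difference was -2.68 points. On chromosomes 1 to 22 and X they were 3.35, 3.46 and 0.758. ORCA lists of equal length gave share differences of -15.6 (early) and -20.0 points (mid). Without the widest 5% of peaks, the early density ratio was 3.40 and the mid share difference -0.542 points, with intervals that spanned 0 for all 3 stages. The interval also spanned 0 for the late share with 500 kb sides (-12.2 points), for the early and late shares on chromosomes 1 to 22 and X (-3.69 and -9.22 points), and, as a ratio, reached below 1 for MeDIP width with 500 kb sides (1.03). The cause of these changes was not tested.

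No paired analysis was possible because each group held 1 sample. For the same reason no replicate could be left out. Depth was not known, so an absent peak is not an absent signal, and the 11 to 30 wide ORCA peaks per stage leave broad intervals.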
